A study of Mus musculus with 6 samples.

Results

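The 27 genes described here encode proteins of the small subunit of the cytosolic ribosome (40S), and they were picked by symbol from the 55401 rows of a gene count table. Each symbol had 1 gene identifier, and all 27 were among the 20587 genes with enough counts to be tested. The counts are from RNA sequencing of tissue from the anterior cingulate cortex (ACC), a midline frontal area, of adult mice. There were 3 libraries labelled KO, from Ythdf1 knockout mice, and 3 labelled WT, from Ythdf1 wild-type mice. YTHDF1 is a cytoplasmic reader of the mRNA mark m6A, and the study, by its title, is concerned with CAP1, a protein of actin turnover. The labels give no treatment, age in weeks, sex, strain or knockout allele, and they do not say that replicates were separate animals. The p-values therefore reflect how far these 6 samples spread, which could be technical variation alone.

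Each library held 61792250 to 69848835 counts. Ythdf1 itself averaged 59.2 ± 2.60 CPM in the libraries labelled KO and 52.7 ± 3.43 CPM in those labelled WT (SD, n = 3 each). Its total was thus no lower under the KO label, and all 3 libraries labelled KO were above all 3 labelled WT. The log2 fold change was 0.17 (SE 0.0660, edgeR unadjusted p = 0.0313, adjusted p = 0.930). Since the deleted part of the gene is not given, a gene total cannot check the label, and the differences below are those between the labels KO and WT. Cap1 averaged 204 ± 6.57 CPM in the libraries labelled KO and 206 ± 3.74 CPM in those labelled WT (SD, n = 3 each; log2 fold change -0.016, SE 0.0466). Levels are given in CPM, the count of a gene set against the TMM-scaled total of its library, and log2 fold changes are KO over WT. All 8 markers of cortical excitatory neurons were counted in every library, with Slc17a7, the main vesicular glutamate transporter of cortex, at 859.7 CPM or more.

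The small subunit is built from 18S ribosomal RNA and a set of proteins, each present as a single copy per subunit. It binds initiation factors and the initiator tRNA, scans the mRNA for a start codon, and reads codons against tRNAs, while the large subunit joins amino acids. In neurons ribosomes work in the cell body and also in dendrites, where synapses use local translation. Ribosomal protein mRNAs typically begin with a 5′ terminal oligopyrimidine (TOP) tract, an unbroken run of C and U that lets the mTOR pathway and LARP1 control their translation as a group.

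The start-site sequences below are shown because that tract is the feature the family is known to share and the choice of members did not use it. RefSeq (GRCm38.p6) gave 28 start sites for 23 of the 27 genes, and Rps14, Rps20, Rps27a and Rps29 had no entry. The search took the unbroken run of C and T, on the gene's strand, that includes or touches the annotated start. A run of at least 7 bases stood at 8 of the 28 starts (28.6%), against 2461 of all 32851 RefSeq starts (7.5%). The median run at the start was 2 bases in both sets. A run of at least 9 bases within 50 bases on each side of the start stood at 21 of the 28 (75.0%), against 8319 of all starts (25.3%). Each line gives 30 bases, 10 before the annotated start and 20 from it, 5′ to 3′ on the gene's strand, with that run in capitals.
Fau, chr19:6057937-6057966 (+ strand): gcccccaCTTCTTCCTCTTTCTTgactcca
Rps10, chr17:27635225-27635254 (− strand): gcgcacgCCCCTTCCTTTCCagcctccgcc
Rps6, chr4:86857348-86857377 (− strand): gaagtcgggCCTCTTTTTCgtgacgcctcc
Rps15a, chr7:118116128-118116157 (− strand): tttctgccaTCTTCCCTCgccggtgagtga
Rps24, chr14:24490668-24490697 (+ strand): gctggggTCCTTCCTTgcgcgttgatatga
Rps27, chr3:90213629-90213658 (− strand): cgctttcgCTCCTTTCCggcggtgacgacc
Rps9, chr7:3704031-3704060 (+ strand): cttgTCTCTCTTTgtctcgggcctgagttc
Rps21, chr2:180257369-180257398 (+ strand): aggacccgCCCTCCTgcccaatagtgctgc
The runs were longest at Fau (16 bases) and Rps10 (13 bases) and shortest, among those printed, at Rps21 (7 bases). Rps24 and Rps21 each had a further RefSeq start, not printed, with a run of 2 bases and 1 base. A run in DNA at an annotated start is a description of these letters, since the starts used in this tissue were not measured.

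The 27 genes together held slightly more of the counts in the libraries labelled KO. They took up 0.233%, 0.215% and 0.215% of all counts in libraries 1, 2 and 3 labelled KO, against 0.188%, 0.201% and 0.201% in libraries 1, 2 and 3 labelled WT. Library 1 labelled KO was the highest and library 1 labelled WT the lowest, and the groups did not overlap. The mean was 0.221% ± 0.0103 in the libraries labelled KO and 0.197% ± 0.00757 in those labelled WT (SD, n = 3 each), a difference of 0.0245 percentage points. Summed over the 27 genes, the level was 2310, 2168 and 2138 CPM in the libraries labelled KO and 1883, 2028 and 2003 CPM in those labelled WT. Genes of the mitochondrial genome took 8.62% to 9.19% of counts in the libraries labelled KO and 9.40% to 9.95% in those labelled WT. Without those genes the difference in the members' share was 0.0252 percentage points.

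Gene by gene, 24 of the 27 had a log2 fold change above 0 and 3 below 0 (Rps12, Rps19 and Rps27l), while 49.8% of all tested genes had one above 0. The median over the 27 was 0.18 (range -0.036 to 0.81, the top being Rps27 and the next Rps29 at 0.46), beside -0.000615 over all tested genes. None of the 27 passed edgeR's quasi-likelihood test (Benjamini-Hochberg adjusted p under 0.05 over all tested genes; smallest adjusted p = 0.881), and 0% of all genes passed it. DESeq2 called 0 of the 27, with 0.165% of all genes called, and limma voom called 0 of the 27 and 0% of all genes. At an unadjusted p under 0.05 edgeR had 14 of the 27 higher and 0 lower, beside 2.62% of all genes higher, 2.64% lower and 5.26% in either direction. Without WT replicate 1 that count was 8. Every library labelled KO was above every library labelled WT for 16 of the 27, beside 5.84% of all genes, and below for 0, beside 5.16%. The 8 genes with a run of C and T printed above had log2 fold changes of 0.13 to 0.81, and the others with a RefSeq start had -0.036 to 0.34. The 0.81 is that of Rps27, which was 0.12 without KO replicate 3. Rps10, the next of the 8, had 0.27, inside the range of the others. A link between the run and the fold change was not tested.

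**Figure D1:**
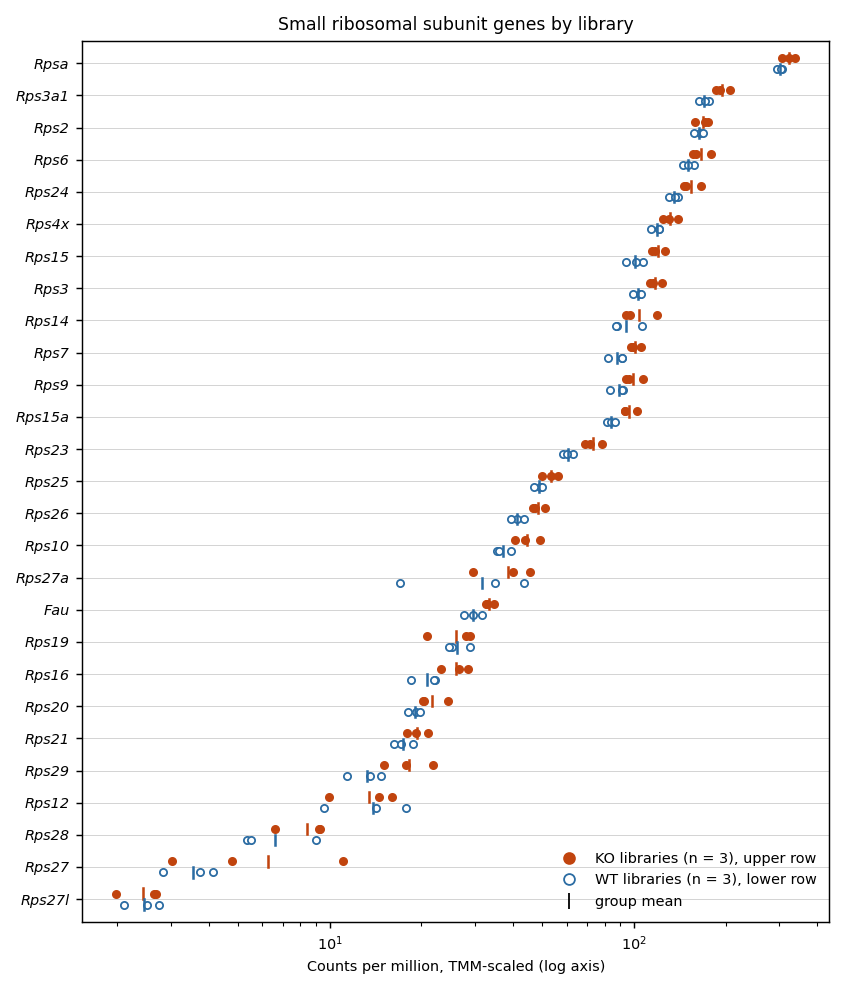
Level of each of the 27 genes in every library, in TMM-scaled CPM on a log axis; filled points are the 3 libraries labelled KO (upper row of each gene), open points the 3 labelled WT (lower row), and ticks the group means. The groups stand apart for 16 genes, with the filled points on the right, and they overlap for the other 11.

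Per kilobase of coding sequence, the level averaged over the 6 libraries was highest for Rps24 (362 ± 31.3 CPM per kb, SD) and Rpsa (353 ± 17.8 CPM per kb), which lay within their spread of each other. Rps15 (253 ± 27.2 CPM per kb), Rps15a (231 ± 19.8 CPM per kb) and Rps3a1 (230.5 ± 19.6 CPM per kb) came next and also overlapped. At the low end stood Rps28 (36.3 ± 9.12 CPM per kb), Rps12 (34.5 ± 8.34 CPM per kb), Rps27 (19.5 ± 12.2 CPM per kb) and Rps27l (9.72 ± 1.28 CPM per kb). The genes at the low end, other than Rps27l, are among those with many reads in near-identical copies, given further on. The divisor holds coding bases only, while reads from untranslated parts of the exons may be counted too. Coding bases were 399 of 1613 in the annotated transcript of Rps24, 885 of 1938 for Rpsa and 435 of 500 for Rps15. The order of the genes therefore depends in part on this divisor.

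The body and feet of the subunit are represented by Rps4x, Rps6, Rps7, Rps15a and Rps24. All 5 had a log2 fold change above 0 (median 0.18, range 0.13 to 0.20), 4 were without overlap between the groups and 4 had an unadjusted p under 0.05. For this and the following parts of the subunit, the shares over all genes are those given above. They were 5.84% higher without overlap and 2.62% higher at an unadjusted p under 0.05 (edgeR). Rps15a (ENSMUSG00000008683, chr7:118104372-118116188, − strand), whose protein binds 18S rRNA, stood at 102, 93.5 and 93.6 CPM in libraries 1, 2 and 3 labelled KO, against 81.6, 83.8 and 86.3 CPM in those labelled WT. All 3 libraries labelled KO were above all 3 labelled WT, with library 1 labelled KO highest. Its log2 fold change was 0.20 (SE 0.0556, edgeR adjusted p = 0.881).

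Rps6 (ENSMUSG00000028495, chr4:86854660-86857412, − strand) encodes the protein that S6 kinases phosphorylate downstream of mTOR, a mark widely read as a sign of neuronal activity. Its mRNA stood at 179.6, 160.4 and 156 CPM in the libraries labelled KO, against 145, 157 and 150.3 CPM in those labelled WT. The groups overlapped, since library 3 labelled KO lay just under library 2 labelled WT. The log2 fold change was 0.13 (SE 0.0626, edgeR adjusted p = 0.930), and 0.070 without KO replicate 1. Rps24, whose loss-of-function variants cause Diamond-Blackfan anaemia in humans, stood at 166, 146 and 148 CPM in the libraries labelled KO and 130.2, 139 and 136 CPM in those labelled WT. Its groups did not overlap, and its log2 fold change was 0.18 (SE 0.0612). Rps7 averaged 101 ± 4.12 CPM in the libraries labelled KO and 88.0 ± 5.19 CPM in those labelled WT (SD, n = 3 each), and the X-linked Rps4x averaged 132 ± 7.78 CPM in the libraries labelled KO and 119 ± 3.97 CPM in those labelled WT. Both were without overlap, with log2 fold changes of 0.20 and 0.15.

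The proteins that line the mRNA entry and the decoding site are encoded by Rps2, Rps3, Rps9, Rps23 and Fau. All 5 had a log2 fold change above 0 (median 0.18, range 0.042 to 0.27), 4 were without overlap and 4 had an unadjusted p under 0.05. Rps23 (ENSMUSG00000049517, chr13:90922958-90924950, + strand), which sits at the decoding centre and bears on accuracy, had the smallest p of the 27 genes. It stood at 78.8, 69.1 and 71.4 CPM in libraries 1, 2 and 3 labelled KO, against 58.5, 63.2 and 60.2 CPM in those labelled WT. The lowest library labelled KO, the second, was above the highest labelled WT, also the second. The means were 73.1 ± 5.05 CPM in the libraries labelled KO and 60.6 ± 2.38 CPM in those labelled WT (SD, n = 3 each), a log2 fold change of 0.27 with an SE of 0.0647 (edgeR adjusted p = 0.881).

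Fau (ENSMUSG00000038274, chr19:6057844-6059524, + strand) encodes a ubiquitin-like protein fused to the ribosomal protein eS30, which is cut from it after translation. Its mRNA stood at 34.6, 32.7 and 32.9 CPM in the libraries labelled KO, against 27.7, 31.5 and 29.5 CPM in those labelled WT. The groups did not overlap, though library 2 labelled WT came close to the lowest library labelled KO, and the log2 fold change was 0.18 (SE 0.0728). Rps3, which guards the mRNA entry, averaged 117 ± 5.43 CPM in the libraries labelled KO and 103 ± 3.17 CPM in those labelled WT (log2 fold change 0.18). Rps9, its neighbour there, averaged 99.3 ± 6.98 CPM in the libraries labelled KO and 88.9 ± 4.87 CPM in those labelled WT (log2 fold change 0.16). Rps2 showed little difference. It stood at 158, 176 and 171 CPM in the libraries labelled KO and 164, 157 and 169 CPM in those labelled WT, with library 1 labelled KO the second lowest of the 6. Its log2 fold change was 0.042 (SE 0.0553), and 12.2% of the reads of Rps2 and its copies fell in 31 copies.

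The head and beak, which face the tRNAs and carry some of the ubiquitin sites used when ribosomes stall, are represented by Rps10, Rps12, Rps15, Rps16, Rps19, Rps20, Rps25, Rps27a and Rps29. Of these 9, 7 had a log2 fold change above 0 (median of the 9 0.25), 6 were without overlap and 4 had an unadjusted p under 0.05. Rps15 (ENSMUSG00000063457, chr10:80292453-80294114, + strand), whose tail reaches the decoding site, stood at 127, 117 and 115 CPM in libraries 1, 2 and 3 labelled KO, against 93.9, 107 and 101 CPM in those labelled WT. All 3 libraries labelled KO were above all 3 labelled WT, and library 1 labelled WT was the lowest. The log2 fold change was 0.25 (SE 0.0635, edgeR adjusted p = 0.881).

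Rps10 and Rps20 encode proteins that the ubiquitin ligase ZNF598 marks on collided ribosomes. Rps10 averaged 44.5 ± 4.203 CPM in the libraries labelled KO and 37.0 ± 2.19 CPM in those labelled WT (log2 fold change 0.27, no overlap). Rps20 averaged 21.8 ± 2.40 CPM in the libraries labelled KO and 19.1 ± 0.874 CPM in those labelled WT (log2 fold change 0.19, no overlap). Rps16, whose tail touches the tRNA in the P site, averaged 26.1 ± 2.69 CPM in the libraries labelled KO and 20.9 ± 2.09 CPM in those labelled WT (log2 fold change 0.32, SE 0.106). Rps29, a small zinc-binding protein, had the highest log2 fold change of the 9, with 15.1, 17.8 and 21.9 CPM in the libraries labelled KO and 11.4, 13.6 and 14.7 CPM in those labelled WT. Its groups were apart by a narrow margin, since library 1 labelled KO lay just above library 3 labelled WT, and the log2 fold change was 0.46 (SE 0.150).

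Rps25, needed for translation from some viral and cellular internal entry sites, stood at 53.5, 49.9 and 56.3 CPM in the libraries labelled KO and 49.1, 49.9 and 47.0 CPM in those labelled WT (log2 fold change 0.13). Library 2 labelled KO and library 2 labelled WT were nearly level. Its exons share 462 bases with Trappc4 and 206 bases with Ccdc84 on the opposite strand, and with the strand setting of the counting not given in the sources used here, reads of these genes may be mixed. Rps27a likewise shares 160 exon bases with Clhc1 and Rps10 89 bases with Gm15420, both on the opposite strand, and Rps10 shares 475 bases with RPS10-NUDT3 on its own strand.

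Rps12, Rps19 and Rps27a, the remaining genes of the head and beak, varied widely between libraries of the same label. Rps12 (ENSMUSG00000061983, chr10:23785183-23787275, − strand), a beak protein that in Drosophila takes part in cell competition, stood at 14.5, 9.93 and 16.1 CPM in the libraries labelled KO, against 9.58, 17.8 and 14.2 CPM in those labelled WT. The groups overlapped fully, and the log2 fold change was -0.036 (SE 0.233). Rps19 (ENSMUSG00000040952, chr7:24884371-24889806, + strand), the gene most often affected in Diamond-Blackfan anaemia, stood at 28.8, 28.0 and 20.9 CPM in the libraries labelled KO, against 25.2, 24.7 and 28.8 CPM in those labelled WT. Library 3 labelled KO was the lowest of the 6, and library 1 labelled KO and library 3 labelled WT were level at the top (log2 fold change -0.019, SE 0.125). Rps27a, which makes ubiquitin fused to the ribosomal protein eS31, stood at 29.6, 45.7 and 39.96 CPM in the libraries labelled KO, against 17.01, 34.8 and 43.5 CPM in those labelled WT. Library 1 was the lowest of its group under either label, and the log2 fold change of 0.27 (SE 0.288) became -0.030 without WT replicate 1.

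The platform and the mRNA exit side are represented by Rpsa, Rps3a1, Rps14, Rps21, Rps26, Rps27, Rps27l and Rps28. Of these 8, 7 had a log2 fold change above 0 (median of the 8 0.17), 2 were without overlap and 2 had an unadjusted p under 0.05. These were Rps3a1 and Rps26. Rps3a1 (ENSMUSG00000028081, chr3:86137940-86142702, − strand), which forms part of the exit platform, stood at 207, 192 and 186 CPM in libraries 1, 2 and 3 labelled KO, against 164, 176 and 170.5 CPM in those labelled WT. All 3 libraries labelled KO were above all 3 labelled WT, with a log2 fold change of 0.19 and an SE of 0.0557 (edgeR adjusted p = 0.881). Rps26, which touches the mRNA upstream of the start codon, averaged 48.3 ± 2.32 CPM in the libraries labelled KO and 41.4 ± 1.93 CPM in those labelled WT (SD, n = 3 each), a log2 fold change of 0.22 (SE 0.0649).

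Rpsa (ENSMUSG00000032518, chr9:120127689-120132369, + strand), also known as the laminin receptor, is needed for the last steps of subunit assembly. It stood at 339, 322 and 306 CPM in the libraries labelled KO, against 295, 307 and 304 CPM in those labelled WT. Libraries 1 and 2 labelled KO were the highest, and library 3 labelled KO lay between the libraries labelled WT, so the groups overlapped (log2 fold change 0.094, SE 0.0510, edgeR adjusted p = 0.956). Without KO replicate 1 it was 0.056. Rps14, the gene behind the anaemia of the human 5q deletion syndrome, averaged 104 ± 13.8 CPM in the libraries labelled KO and 93.9 ± 10.6 CPM in those labelled WT, with overlap (log2 fold change 0.14, and 0.026 without KO replicate 1). Rps21, whose yeast counterpart binds that of Rpsa, averaged 19.4 ± 1.59 CPM in the libraries labelled KO and 17.4 ± 1.28 CPM in those labelled WT (log2 fold change 0.16). Rps28 stood at 9.32, 9.24 and 6.62 CPM in the libraries labelled KO and 5.36, 5.53 and 9.002 CPM in those labelled WT. Library 3 went against the rest under both labels, low among the libraries labelled KO and high among those labelled WT (log2 fold change 0.34, SE 0.223). It was 0.20 without WT replicate 1 and 0.62 without WT replicate 3.

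Rps27 and Rps27l encode near-identical zinc-binding proteins that fill the same place in the subunit, and human RPS27L is a target of p53. Rps27 (ENSMUSG00000090733, chr3:90212522-90213651, − strand) stood at 3.04, 4.76 and 11.02 CPM in libraries 1, 2 and 3 labelled KO, against 4.13, 2.83 and 3.74 CPM in those labelled WT. Library 3 labelled KO was far above the other 5, and without it the groups overlapped closely. The log2 fold change of 0.81 carried an SE of 0.404 (edgeR adjusted p = 0.942). Leaving out KO replicate 3 gave 0.12, and leaving out KO replicate 1 gave 1.14. Rps27l (ENSMUSG00000036781, chr9:66946086-66949516, + strand) stood at 1.99, 2.66 and 2.68 CPM in the libraries labelled KO and 2.51, 2.11 and 2.75 CPM in those labelled WT, with full overlap (log2 fold change -0.0097, SE 0.208).

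Several of the genes had many reads in near-identical copies elsewhere in the genome. Ribosomal protein genes have many retrotransposed copies, most of them pseudogenes, and reads that match a gene and its copy equally can be counted to either. A sequence search (blastn, at least 95% identity over at least 150 bases, covering at least 50% of the copy's exons) found 182 copies for 26 of the 27 genes and none for Rps27l. The 182 include RPS10-NUDT3, which overlaps Rps10 itself on the same strand and held 0 counts. Other copies also held 0 counts, among them the only copy of Rps3. Copies held over 10% of the reads of gene plus copies for 9 genes. Their share was 74.1% for Rps27, 58.3% for Rps12, 41.8% for Rps27a, 32.7% for Rps10, 31.5% for Rps28 and 28.2% for Rps7, and 11.97% to 12.4% for Rps2, Rps16 and Rps19. The coefficient of variation over the 6 libraries was 62.4% for Rps27, 30.2% for Rps27a, 25.1% for Rps28 and 24.1% for Rps12, the widest of the 27. Next came Rps29 at 23.2%, with 5.53% of reads in copies and a coefficient of 22.0% with the copies added, while Rps10 and Rps7 varied by 12.5% and 8.73%. Among the 18 genes with 10% or less of the reads in copies, 17 had a log2 fold change above 0 (median 0.18), 13 were without overlap and 11 had an unadjusted p under 0.05. Among the 9 with more, 7 had one above 0 (median 0.27), 3 were without overlap and 3 had an unadjusted p under 0.05. Beside them, 5.84% of all genes were higher without overlap and 2.62% were higher at an unadjusted p under 0.05 (edgeR).

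The sequences of Rps27a (chr11:29545846-29548109, − strand, GRCm38, GENCODE M21) and of its copy Rps27a-ps2 (chr9:83409660-83410126), a processed pseudogene, show how little parts such pairs. Over 467 aligned bases of the coding sequence they differed at 1 position, A375G, counted from 1 at the first base of the start codon, with the gene's base first. The lines give 30 bases around that position, 5′ to 3′, with the differing base as a capital.
Rps27a: gtgtccttctgatgaAtgtggtgctggagt
Rps27a-ps2: gtgtccttctgatgaGtgtggtgctggagt
Rps27 and the retrogene Rps27rt (chr9:114982366-114982739) had 0 differences over all 252 coding bases, Rps12 and Rps12-ps3 had 0 over 396, and Rps28 and Gm10443 had 0 over 207. Rps19 and Rps19-ps6 differed at 5 of 435 positions (C6T, T273C, G369A, G372A and C390T). A read lying between such positions fits gene and copy equally well.

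For Rps27a, gene and copy went opposite ways between libraries. Rps27a-ps2 stood at 32.3, 14.9 and 18.3 CPM in libraries 1, 2 and 3 labelled KO, against 29.7, 21.1 and 5.65 CPM in those labelled WT, so it was high in both first libraries, where Rps27a was low, and lowest in library 3 labelled WT, where Rps27a was high. Rps27a and all its copies summed to 69.6, 64.4 and 62.3 CPM in the libraries labelled KO, against 51.1, 60.7 and 51.2 CPM in those labelled WT. With the copies added the groups did not overlap, and the coefficient of variation over the 6 libraries was 12.4%, against 30.2% for the gene alone. The log2 fold change of the sum was 0.27 (SE 0.0799, edgeR adjusted p = 0.872).

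Rps27rt stood at 17.4, 15.3 and 10.7 CPM in the libraries labelled KO and 13.1, 11.8 and 13.2 CPM in those labelled WT, with its lowest value in library 3 labelled KO, where Rps27 was highest. In the libraries labelled WT both were lowest in library 2. The sum of Rps27 and its copies was 20.7, 20.5 and 21.8 CPM in the libraries labelled KO, against 17.3, 14.8 and 17.2 CPM in those labelled WT. The groups of sums did not overlap, and the log2 fold change was 0.36 (SE 0.0914, edgeR adjusted p = 0.872), against 0.81 for the gene alone. The coefficient of variation over the 6 libraries was 14.4% for the sum and 62.4% for Rps27 alone.

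Rps12 with its copies summed to 39.2, 30.2 and 33.4 CPM in the libraries labelled KO, against 28.7, 34.4 and 30.4 CPM in those labelled WT, with overlap. Rps19 with its copies summed to 33.8, 30.3 and 29.2 CPM in the libraries labelled KO, against 27.4, 27.1 and 30.8 CPM in those labelled WT, also with overlap. Their log2 fold changes were 0.14 (SE 0.107) and 0.13 (SE 0.0844), above 0, while those of the genes alone were -0.036 and -0.019. Rps28 with its copies summed to 11.5, 11.9 and 12.7 CPM in the libraries labelled KO, against 10.2, 8.53 and 11.02 CPM in those labelled WT, without overlap (log2 fold change 0.28, SE 0.122). For Rps7 the copies lowered the difference. The copy Gm6472 was highest in library 1 under either label, and the log2 fold change of the sum was 0.13 (SE 0.0610), against 0.20 for Rps7 alone.

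**Figure D2:**
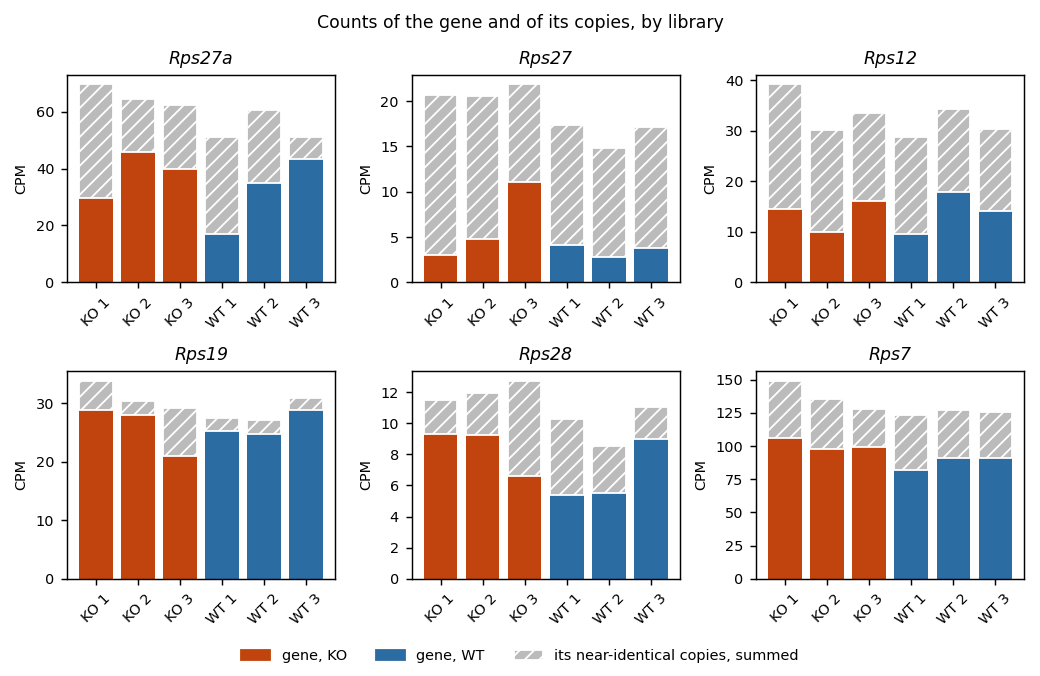
Level in CPM of 6 genes (solid, the libraries labelled KO in red on the left and those labelled WT in blue) with their near-identical copies stacked above (grey hatching), by library. For Rps27a and Rps27 the solid parts differ widely between libraries of the same label, while the stacked totals vary by 12.4% and 14.4% (coefficient of variation over the 6 libraries).

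With copies added to every gene, 26 of the 27 had a log2 fold change above 0, all but Rps27l, with a median of 0.18 and a range of -0.0095 to 0.44. The groups were without overlap for 20 of the 27, beside 5.87% of all genes in that table, and 17 had an unadjusted p under 0.05 and were higher in the libraries labelled KO, beside 2.64% of all genes. None passed at an adjusted p under 0.05 (edgeR, smallest adjusted p = 0.872). The copies were chosen after the counts of the genes had been seen.

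**Figure D3:**
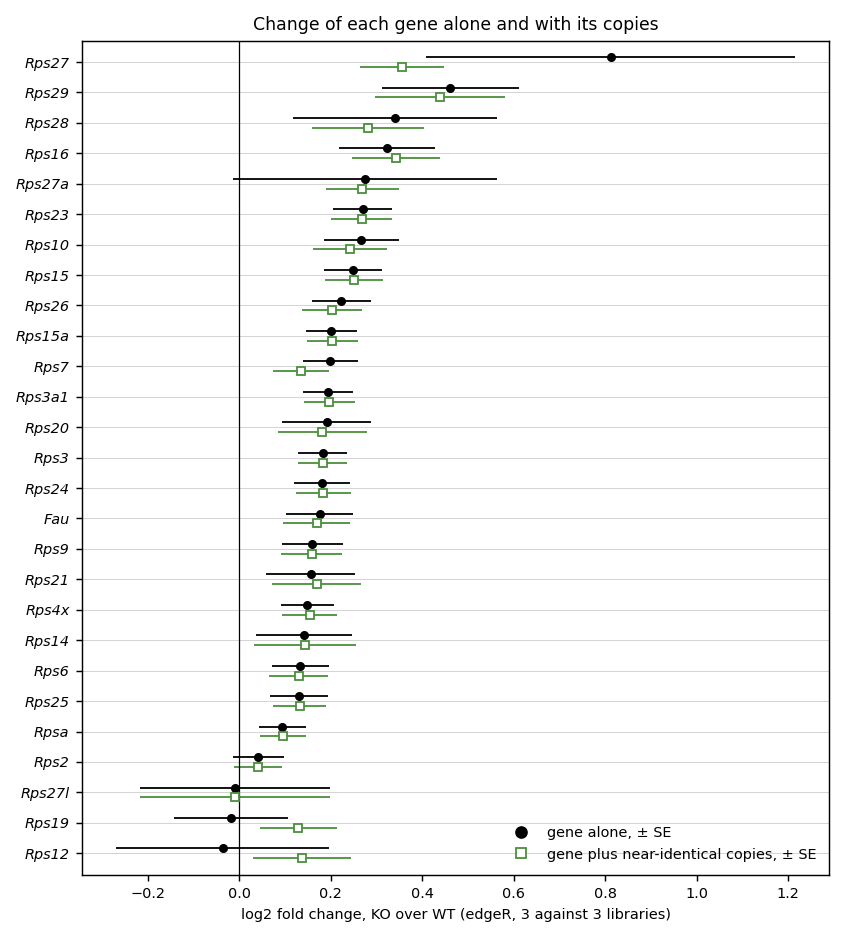
Log2 fold change, libraries labelled KO over libraries labelled WT (edgeR, 3 against 3), of each gene alone (filled circles) and of the gene plus its near-identical copies (open squares), with bars of 1 SE on each side and genes ordered by the value for the gene alone. The open squares lie between -0.0095 and 0.44, a narrower range than the filled circles at -0.036 to 0.81, and Rps12 and Rps19 change side.

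The libraries also differed within each label, and 15 of the 27 genes had a Pearson's r of 0.9 or more with the median of all 27. The median deviation of the 27 genes from their 6-library means (log2 CPM) was 0.16, 0.062 and 0.058 in libraries 1, 2 and 3 labelled KO, against -0.15, -0.048 and -0.063 in libraries 1, 2 and 3 labelled WT. Library 1 labelled KO and library 1 labelled WT were the extremes. As a description over the 6 libraries, Pearson's r of a gene's deviation with that median was 0.99 for Rps3, 0.99 for Rps15 and 0.99 for Rps3a1, and it lay at or above 0.9 for those 15. It was 0.01 for Rps2, 0.14 for Rps19, 0.14 for Rps27, 0.27 for Rps12 and -0.36 for Rps27l. All of these points share the same 6 libraries and their depth. The median includes the gene itself and the difference between the labels, which raises r, and genes outside the 27 were not set beside it.

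Markers of other cell types differed between libraries as well. All 10 markers of mature oligodendrocytes, among them the myelin gene Mbp, had a log2 fold change above 0 (median 0.35, 7 at an unadjusted p under 0.05), and they summed to 6579, 4981 and 4332 CPM in the libraries labelled KO, against 3864, 4611 and 3950 CPM in those labelled WT. As with the 27 genes, library 1 labelled KO was the highest and library 1 labelled WT the lowest. All 9 meningeal fibroblast markers had one below 0 (median -0.87) and an unadjusted p under 0.05, 8 of them without overlap, and DESeq2 called 5 where edgeR called 0. They had sums of 72.3, 62.3 and 80.3 CPM in the libraries labelled KO and 189, 93.8 and 126 CPM in those labelled WT, library 1 labelled WT being the highest. All 8 endothelial markers were below 0 (median -0.34, 4 at an unadjusted p under 0.05), with sums of 174 to 241 CPM in the libraries labelled KO and 213 to 288 CPM in those labelled WT. All 8 striatal projection neuron markers were below 0 (median -0.56, 3 at an unadjusted p under 0.05), with sums of 166 to 174 CPM in the libraries labelled KO and 184 to 354 CPM in those labelled WT, library 2 labelled WT being the highest. DESeq2 also called 1 marker each of mature oligodendrocytes, endothelial cells and striatal projection neurons, where edgeR called 0. By edgeR, an unadjusted p under 0.05 went with a rise for 2.62% of all tested genes and with a fall for 2.64%. The libraries labelled KO all lay below those labelled WT for 5.16% of all genes, and DESeq2 called 0.165%. Choroid plexus markers, all 4 tested being below 0, summed to 2.78 to 22.98 CPM in the libraries labelled KO and 4.19 to 48.9 CPM in those labelled WT, with Folr1 at 0 in library 2 under either label. Medians were 0.046 for markers of cortical excitatory neurons, 0.020 for interneurons, -0.046 for astrocytes and 0.039 for microglia. The part of these cell types in the members' values was not tested, and in bulk tissue fewer cells of a type and less RNA per cell cannot be told apart.

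Short transcripts other than ribosomal protein mRNAs also stood slightly higher in the libraries labelled KO. Over 651 protein-coding genes with transcripts under 1000 bases and no ribosomal protein symbol, each averaging 1 CPM or more over the libraries, the median log2 fold change was 0.086, and 70.2% of them were above 0. Over all 15582 tested genes with a length and the same minimum level, those of ribosomal proteins included, the median was 0.11 for the 405 genes under 600 bases, 0.074 from 600 to under 1000 bases, 0.028 from 1000 to under 2000 bases, -0.0023 from 2000 to under 4000 bases and -0.017 from 4000 bases upwards. With a trend on exon length removed from every library, 24 of the 27 genes were above 0, their median was 0.17 and 12 had an unadjusted p under 0.05. The length was that of 1 annotated transcript per gene, and the transcripts present in this tissue were not measured. It was 5179 bases for Rps15a (390 of them coding) and 3706 for Rps20 (357 coding), so these genes were treated as long. The trend may therefore be removed only in part.

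Among genes that work with the small subunit, all 49 large subunit proteins had a log2 fold change above 0 (median 0.19). Of these, 24 were without overlap, 23 had an unadjusted p under 0.05 and 0 passed at an adjusted p under 0.05. Over all genes, 5.84% were higher without overlap and 2.62% were higher at an unadjusted p under 0.05 (edgeR). Rplp1, of the stalk that recruits elongation factors, averaged 67.5 ± 3.59 CPM in the libraries labelled KO and 55.7 ± 2.25 CPM in those labelled WT (SD, n = 3 each; log2 fold change 0.28, SE 0.0611). The median deviation of the 49 genes was 0.16, 0.073 and 0.022 in the libraries labelled KO, against -0.12, -0.068 and -0.048 in those labelled WT, with the same libraries at the extremes. The 29 proteins of the mitochondrial small subunit, a separate ribosome for the mitochondrial genome, had 26 above 0 (median 0.093), with 3 at an unadjusted p under 0.05. Mrps21 averaged 13.3 ± 0.902 CPM in the libraries labelled KO and 10.1 ± 0.313 CPM in those labelled WT (log2 fold change 0.40, SE 0.102), and Mrps10 averaged 19.9 ± 0.641 CPM in the libraries labelled KO and 17.2 ± 0.972 CPM in those labelled WT (log2 fold change 0.21).

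**Figure D4:**
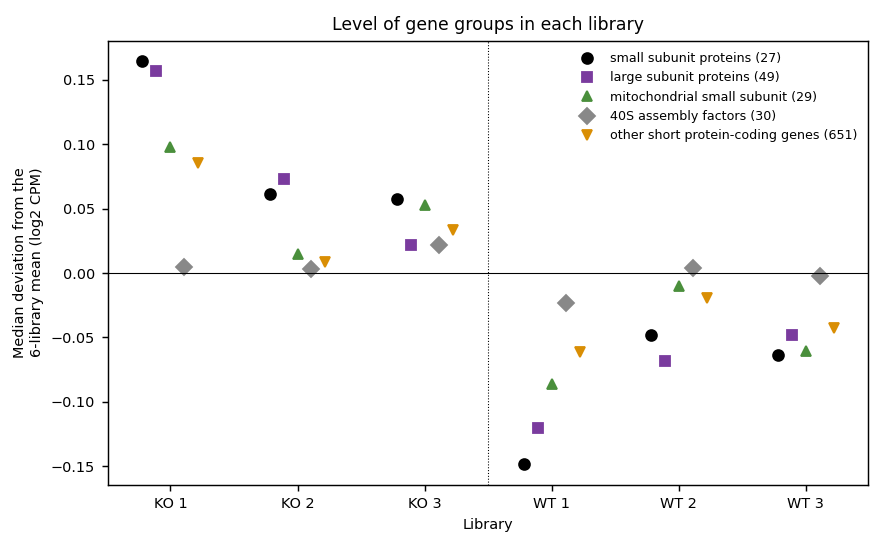
Median deviation of 5 gene groups from their 6-library means (log2 CPM) in each library, the 3 labelled KO left of the dotted line and the 3 labelled WT right of it; the number of genes is given in the legend. The small subunit (circles) and large subunit (squares) proteins are highest in KO 1 and lowest in WT 1, as are mitochondrial small subunit proteins (triangles) and other short protein-coding genes (inverted triangles), and 40S assembly factors (diamonds) lie between -0.023 and 0.022.

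The factors that build, load and inspect the small subunit were divided between higher and lower. Of 30 assembly factors of the 40S subunit, 15 had a log2 fold change above 0 (median -0.00030). At an unadjusted p under 0.05 (edgeR) 1 was higher (3.33%), near the 2.62% of all genes. That was Imp3, a protein of the early U3-containing precursor, which averaged 10.3 ± 0.474 CPM in the libraries labelled KO and 8.62 ± 0.661 CPM in those labelled WT (log2 fold change 0.26, SE 0.112), and Krr1 came next (0.12). Of 21 subunits of eIF3 and other factors that bind the 40S subunit, 12 were above 0 (median 0.014), led by Eif3i at 47.5 ± 2.49 CPM in the libraries labelled KO and 42.2 ± 0.960 CPM in those labelled WT (log2 fold change 0.17), then Eif3h (0.13). Of 20 regulators of ribosomal protein mRNA translation and S6 kinases, which include Larp1 and Mtor, 11 were above 0 (median 0.012), led by Rheb, the GTPase that switches on mTOR (0.17, SE 0.0586), then Rptor (0.062). Of 16 tested genes of ubiquitin-dependent quality control on the 40S subunit, 10 were above 0 (median 0.010). Otud3, a deubiquitinase, averaged 8.80 ± 0.480 CPM in the libraries labelled KO and 10.6 ± 0.384 CPM in those labelled WT (log2 fold change -0.27, SE 0.106), and Edf1, a sensor of collided ribosomes, had a log2 fold change of 0.15. None of these 87 genes passed at an adjusted p under 0.05 by edgeR, and each of the 4 medians changed sign when some single library was left out.

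At the level of transcripts, the authors' deposited table listed 537 as differing between the genotypes, and 2 of them belong to the 27 genes. The first, ENSMUST00000199428, is a retained-intron transcript of Rps27 of 672 bases (chr3:90212827-90213646, − strand). In the authors' deposited table it had 0.117, 0.0944 and 0.0997 FPKM in the libraries labelled KO, against 0.748, 0.340 and 0.737 FPKM in those labelled WT, with a deposited log2 ratio of -2.55 and a q-value of 0.0108. All 3 libraries labelled KO were below all 3 labelled WT, but the transcript was listed because it was lower in these same libraries. Its values were low throughout, at 0.748 FPKM or less. The second, ENSMUST00000235966, is a coding transcript of Rps14 of 755 bases. The authors' deposited table gives it 0.378, 0.293 and 0.036 FPKM in the libraries labelled KO, against 72.5, 0.784 and 0.393 FPKM in those labelled WT (deposited log2 ratio -6.70, q-value 0.0435). Its high value stood in library 1 labelled WT alone, where the gene total of Rps14 was the second lowest of the 6.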

How the data were processed

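Per the labels' protocols, polyadenylated RNA was selected from Trizol extracts and strand-marking (dUTP) libraries were sequenced paired-end (Illumina). The submitters' processing notes list StringTie 2.1.6, HISAT2 2.2.1, cutadapt 1.9 and, versionless, edgeR and DESeq2. With build, counting method and strand setting not given in the sources used here, how reads of near-identical copies were assigned is unknown. The authors deposited whole-number counts per gene, not normalized, and a table of transcripts listed as differing with FPKM per library. That deposited table also holds a fold change as a ratio and as a log2 ratio, and p-values and q-values, all computed by the authors. The direction written beside each transcript was used, since the names of the deposited sheets run the other way.

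Counts passing filterByExpr were TMM-scaled (factors 0.993 to 1.01) and tested in edgeR 4.0.16 (R 4.3.3) with the quasi-likelihood F-test, 3 libraries labelled KO against 3 labelled WT with no covariate, with p-values adjusted by Benjamini and Hochberg over all 20587 tested genes. The SE is the size of the log2 fold change divided by the square root of F. Deviations use log2(CPM + 0.5). Positions, lengths and overlaps come from GENCODE M21 (GRCm38), where 55141 of 55401 identifiers had a symbol, and start sites from RefSeq (GRCm38.p6). Copies were found with blastn 2.17.0 and aligned with Biopython 1.88. With 61792250 to 69848835 counts per library, the 3 libraries per group limit the precision.

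The members and lists were chosen with earlier results of these data known. Values are given in full for the 4 members with the smallest p, those lower in the libraries labelled KO, the most and the least abundant, Rps27 with Rps27l, Rps27a, Fau, Rps6 and Rpsa; values in every library of other members were added after they had been seen. Of each other list up to 2 genes with the smallest p are named, except 1 large subunit gene that is not reported here. Alternatives were RLE, upper-quartile and total-count scaling, other filters, DESeq2 1.42.0, limma 3.58.1 (voom), the replicate number as a block, a length trend removed, added copies, and each library left out. Only the main edgeR fit was tested on simulated data, with counts drawn separately for each gene. The simulated data held no reads shared between copies and no length trend, so these were not tested.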

Additional observations from a re-analysis of the deposited data

How the results depend on the processing

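The median log2 fold change of the 27 genes was 0.18 as reported and lay between 0.15 (without WT replicate 1) and 0.20 (without KO replicate 3) when a library was left out, and between 0.17 and 0.19 under the other settings. None of the 27 genes was called under any setting. Over all genes edgeR called 0, and 0 to 2 when a library was left out, while DESeq2 called 34. The difference in the members' share of counts was 0.0186 to 0.0275 percentage points with a library left out. Rps12 (-0.036) was 0.13 with the copies named for it, 0.14 with all copies found by sequence, 0.14 without KO replicate 2 and 0.18 without WT replicate 2, with a range of -0.25 to 0.18 over the libraries left out. Rps19 (-0.019) was 0.12 and 0.13 with the same copies, 0.11 without KO replicate 3 and 0.051 without WT replicate 3 (range -0.10 to 0.11). Rps27l (-0.0097) was 0.12 without KO replicate 1, 0.0019 without WT replicate 1 and 0.077 without WT replicate 3 (range -0.11 to 0.12). Rps27a (0.27) was -0.030 without WT replicate 1 and 0.57 without WT replicate 3, the ends of its range. Without 1 library, 16 of the 27 genes moved by over 1.5 times or changed sign. Besides those above, Rps27 (0.81) ranged from 0.12 without KO replicate 3 to 1.14 without KO replicate 1, and Rps2 (0.042) from 0.0093 without KO replicate 2 to 0.083 without KO replicate 1. Rps28 (0.34) ranged from 0.20 without WT replicate 1 to 0.62 without WT replicate 3, and Rps14 (0.14) from 0.026 without KO replicate 1 to 0.23 without WT replicate 2. Without KO replicate 1, Rpsa was 0.056, Rps6 0.070, Rps9 0.10 and Rps24 0.12. Without KO replicate 2, Rps20 was 0.096, and without KO replicate 3, Rps21 was 0.089, Rps25 0.084 and Rps29 0.31. The smallest adjusted p of a member was 0.881 by edgeR, 0.524 by edgeR without WT replicate 2 and 0.123 by DESeq2. Of 276 fold changes, medians and shares recomputed under other settings, 207 kept their direction within 1.5 times of the reported value, 48 kept it outside that range and 21 changed sign. Of those 21, 12 belong to the 4 genes above and 9 to the medians, all near 0, of the 4 lists of assembly, initiation, regulation and quality control genes. The cause of the changes with single libraries was not tested. Deviations of same-numbered libraries from their group means had correlations of -0.146, 0.067 and 0.099. Those of differently numbered libraries ran from -0.188 to 0.113. With 3 libraries a group, these values cannot tell whether the numbers pair the samples. With the replicate block 0 genes were called, the members' median was 0.18 and 11 of the 27 had an unadjusted p under 0.05. With 3 libraries a group, counts that depend on how reads were assigned to copies limit what can be said of Rps12, Rps27, Rps27a and Rps28 alone.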
